A study of Mus musculus with 18 samples.

Results

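Knockdown of the histone H3 lysine 36 (H3K36) methyltransferases Nsd1, Nsd2 and Setd2 was compared with control siRNA in cultured C3H10T1/2 cells, mouse embryonic mesenchymal cells that can form cartilage, bone, fat and muscle-like cells. The comparison rested on 6 of the 18 RNA-seq libraries of the series: 3 of cells given a scramble siRNA (control siRNA) and 3 of cells given siRNAs against all of the enzymes (HMT siRNA). All 6 came from the parental line at passage 10 to 15, grown in serum-containing medium, and carried no histone transgene. The estimate of spread behind each SE and p-value also used 2 libraries of H3.3 wild-type cells and 2 of H3.3K36M cells. Those cells carry wild-type or mutant H3.3 and were at the same passages. The members were every gene with a value of at least 10 in 3 of the 6 siRNA libraries, which was 12248 of the 20325 genes in the table. The siRNA sequences, doses and times of harvest are not given in the sources used here, and no protein or histone mark was measured in these libraries.

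H3K36 methylation marks the bodies of transcribed genes. Nsd1 and Nsd2 write the monomethyl and dimethyl forms, which also spread between genes, and Setd2 writes the trimethyl form behind elongating RNA polymerase II. The marks recruit DNA methyltransferases, splicing and repair factors, and they hinder the Polycomb enzyme that methylates lysine 27 of the same histone. Loss of one copy of NSD1 or SETD2 causes overgrowth disorders in people, and loss of one copy of NSD2 growth restriction, and mutation of the lysine itself is known from cartilage tumours.

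Values are estimated counts divided by a library factor, and a log2 fold change is that of HMT siRNA over control siRNA on the log2(value + 1) scale. Library depth was 13993307 to 19346834 estimated reads in the control libraries and 22406728 to 33107488 in the HMT siRNA libraries, so that every HMT siRNA library was the deeper one and depth cannot be told apart from treatment for genes at low values. The SD of the log2 difference between 2 libraries, over genes, was 0.268 to 0.303 within the control group, 0.199 to 0.228 within the HMT siRNA group and 0.641 to 0.691 between groups. Of 14 mesenchymal marker genes, 13 were at 10 or more in 3 libraries, with a summed value of 578924 to 620468 in control and 797894 to 807015 in HMT siRNA libraries. Most of that sum was Col1a1 and Col1a2. The labels do not say whether the libraries of a group came from separate cultures, so a p-value sets each change against library-to-library spread that could be technical. Fewer cells of a kind and less RNA per cell cannot be told apart in such bulk samples.

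All of the targeted transcripts were lower, Setd2 by far the most. Setd2, the enzyme of the trimethyl mark, was at 3225, 3114 and 3401 in the control libraries and 1114, 1063 and 1224 in the HMT siRNA libraries (log2 fold change -1.52 ± 0.05 SE, adjusted p = 2.45e-16, limma with Benjamini-Hochberg adjustment). Whsc1, the name under which the table lists Nsd2, was at 1592, 1565 and 1607 in the control libraries and 1036, 1019 and 1121 in the HMT siRNA libraries (-0.59 ± 0.04). Nsd1 was at 4770.4, 4392 and 5007 in the control libraries and 3227, 3189 and 3422 in the HMT siRNA libraries (-0.52 ± 0.04). The groups did not overlap for any of them, and the ratio of HMT siRNA to control means was 0.35 for Setd2, 0.67 for Whsc1 and 0.69 for Nsd1. Of the other H3K36 enzymes, Setd3 fell slightly (-0.11), and Setd5 rose slightly (0.09), a call that was lost without HMT siRNA replicate 1 or 3 or control replicate 1 or 2. The Setd5 call was also lost under quantile normalisation, with no filter on low values and with eBayes run without trend and robust. Whsc1l1, the third NSD family member (0.06), Ash1l (0.02), Smyd2 (0.03) and Setmar (0.00) did not pass.

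**Figure D1:**
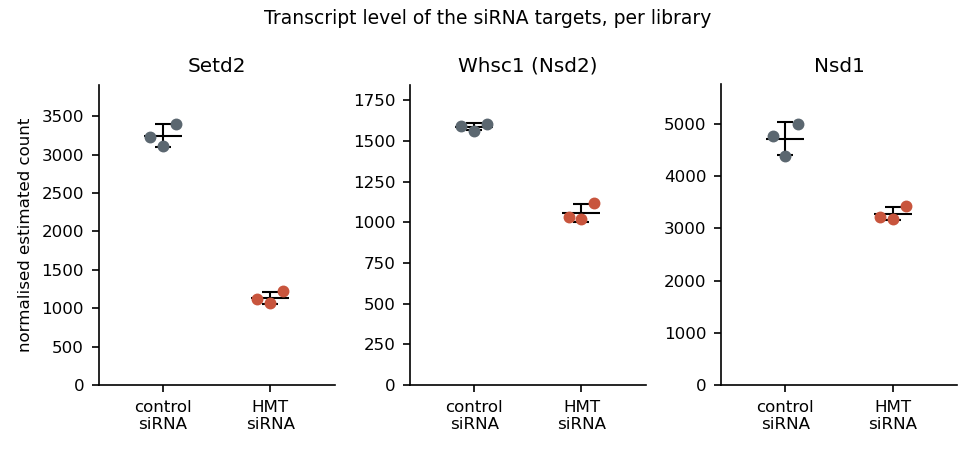
Normalised estimated counts of Setd2, Whsc1 (Nsd2) and Nsd1 in each control siRNA and HMT siRNA library (points), with the mean and SD of 3 libraries (bars); each vertical axis starts at 0. The HMT siRNA libraries lie below every control library in each panel, with Setd2 showing the widest gap.

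The response was broad, with near-equal numbers of genes higher and lower. Median normalisation brought the libraries to a common level, so a shift shared by most genes could not be seen. Part of this balance follows from that scaling, with a median log2 fold change of -0.0025 over all genes tested. In all, 4076 genes were higher (33.3% of those tested) and 4103 were lower (33.5%) at an adjusted p under 0.05. Of these, 558 were at least 2-fold higher (4.56%) and 555 at least 2-fold lower (4.53%), while 3539 of the calls were changes of under 1.25-fold. All HMT siRNA libraries lay above all control libraries for 4240 genes (34.6%) and below them for 4267 (34.8%). At 4-fold the balance tipped, with 79 genes higher and 132 lower. Among genes with a mean of 30 to 100, 20.6% were higher and 36.7% lower, whereas from a mean of 3000 upward 43.0% were higher and 32.5% lower. These shares are the background against which the counts below are read: a gene list with shares close to these does not stand apart from all genes.

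**Figure D2:**
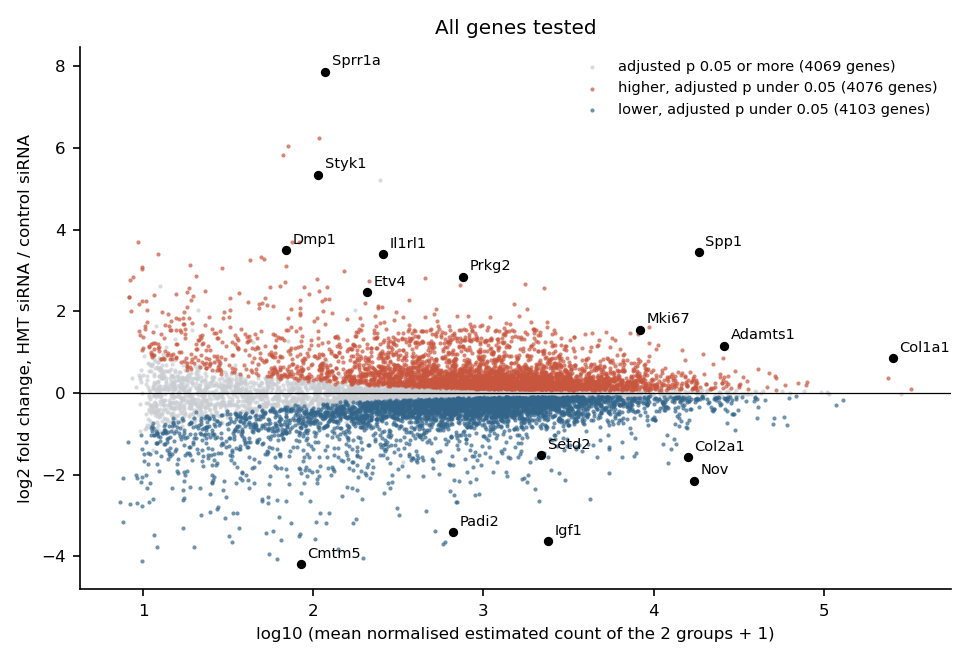
Log2 fold change (vertical axis, HMT siRNA over control siRNA) against log10 of the mean normalised estimated count plus 1 (horizontal axis) for all 12248 genes tested, coloured by call at an adjusted p of 0.05. The 4076 higher and 4103 lower genes spread over the whole range of levels, and labelled genes other than Col2a1 are described in the text.

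Cell division genes formed the most uniform group. All 54 mitosis and cytokinesis genes rose, 53 of them at least 2-fold, with a median log2 fold change of 1.35 against -0.0025 over all genes tested. Top2a, the topoisomerase that untangles sister chromatids, was at 5133, 4378 and 4444 in the control libraries and 14200.3, 13744 and 14697 in the HMT siRNA libraries (1.61 ± 0.05, adjusted p = 3.24e-15). Mki67, the proliferation antigen that coats mitotic chromosomes, was at 4858, 3716 and 4176 in the control libraries and 12296, 11786 and 13176 in the HMT siRNA libraries (1.55 ± 0.09). Kif11, the motor that pushes spindle poles apart, was at 1147, 966 and 1029 in the control libraries and 2936, 2995 and 3149 in the HMT siRNA libraries (1.53 ± 0.05). No HMT siRNA library reached down to a control library for any of the 54. The shugoshin genes Sgol1 (1.65) and Sgol2 (1.65), which protect centromeric cohesion, rose most, and the phosphatase gene Cdc25b (0.89), which opens mitosis, was the one below 2-fold.

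Genes of S phase rose almost as uniformly, with 44 of 46 higher, none lower and 25 at least 2-fold higher (median 1.11). Log2 fold changes of those that rose went from 0.30 for Ccne1, an S-phase cyclin, up to E2f2, an activating E2F factor, at 44.0, 33.8 and 36.3 in the control libraries and 187, 172 and 195 in the HMT siRNA libraries (2.26 ± 0.13). The helicase subunit gene Mcm5 (1.62), the origin factor genes Cdc45 (1.57) and Mcm10 (1.53) and the nucleotide enzyme gene Tk1 (1.53) followed, with non-overlapping groups. E2f1 itself (0.10) and Rpa3 (0.01) did not pass. Of 33 mismatch repair and homologous recombination genes 27 rose and 1 fell (median 0.82). Exo1, the exonuclease of both pathways, was at 135, 108 and 114 in the control libraries and 425, 370.0 and 401 in the HMT siRNA libraries (1.74 ± 0.09), and Mlh3 (1.55) and Fanca (1.50) also rose more than 2-fold. Msh6, a mismatch repair protein that reads trimethylated H3K36, rose (0.83).

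The regulators around the cell cycle engine were mixed. Of 19 RB pathway genes and cell cycle inhibitors 13 rose and 4 fell. Ccnd1, the growth-factor-responsive D-type cyclin, was at 6793, 6609.5 and 6342 in the control libraries and 14656, 14541 and 15081 in the HMT siRNA libraries (1.17 ± 0.03), and the repressor E2F genes E2f7 (1.53) and E2f8 (1.47) and the pocket protein gene Rbl1 (1.25) rose. The inhibitor gene Cdkn1a, which encodes p21, fell (-0.42), Cdkn2a rose (0.76) and Cdkn1b did not pass (0.11). Of 23 p53 target genes 13 rose, none by 2-fold, and 9 fell, among them Perp (-1.60), a desmosome-associated death effector, and Gadd45b (-0.95). Of 15 quiescence and FoxO target genes 10 fell, among them Gas6 (-1.28), Klf2 (-1.07) and Ccng2 (-0.53). Another 4 rose, with Pdk4, which restrains glucose oxidation, at 899.9, 817 and 913 in the control libraries and 2925, 2906 and 2964 in the HMT siRNA libraries (1.74 ± 0.05).

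Levels in the H3.3 wild-type line of the same table, which stably expresses tagged H3.3 and was at the same passages (n = 2) were set beside these. Mean values in control siRNA cells were below those of the wild-type line for 54 of 54 mitosis genes and 44 of 46 S-phase genes, and those in HMT siRNA cells were below it for 44 and 8 of them. Mki67 averaged 4249.7 ± 575 (SD, n = 3) in control cells, 12419.7 ± 703 in HMT siRNA cells and 12971 ± 315 (SD, n = 2) in wild-type cells. The siRNA cells differ from that line in transfection, transgene and, for genes with 1 to 20 estimated reads, in the share of values that were whole counts (85.02 to 85.7% against 77.8 to 78.0%), and which of these moved with the levels was not tested.

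Promoter sequences are shown for mitosis and amino acid response genes because members of each rose together. RefSeq windows of 250 bases before to 50 after a start (GRCm38.p6) were found for 45 of the 54 mitosis genes, in 50 windows. Both strands were searched for TTTGAA, the cell cycle genes homology region (CHR) bound by the MuvB complexes that time mitotic transcription, and for CCAAT, the NF-Y box; neither motif contains the other. TTTGAA was in 66.0% of the mitosis windows, 17.9% of all 32851 windows and 12.1% of the 12491 windows of genes tested. CCAAT was in 74.0%, 37.4% and 38.0%, and both together were in 54.0%, 6.95% and 4.87%. The bases before the start are printed for the mitosis genes with the largest log2 fold changes among those with a single window holding both motifs upstream, with TTTGAA and CCAAT matches on either strand in capitals. Top2a lies at chr11:99024190-99024439, minus strand, Mki67 at chr7:135716380-135716629, minus strand and Kif11 at chr19:37376132-37376381, plus strand.
Top2a: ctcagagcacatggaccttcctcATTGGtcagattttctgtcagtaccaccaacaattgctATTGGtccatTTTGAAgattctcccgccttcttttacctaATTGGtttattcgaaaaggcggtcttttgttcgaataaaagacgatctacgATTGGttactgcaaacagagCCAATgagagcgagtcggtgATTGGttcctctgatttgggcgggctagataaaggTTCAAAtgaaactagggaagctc
Mki67: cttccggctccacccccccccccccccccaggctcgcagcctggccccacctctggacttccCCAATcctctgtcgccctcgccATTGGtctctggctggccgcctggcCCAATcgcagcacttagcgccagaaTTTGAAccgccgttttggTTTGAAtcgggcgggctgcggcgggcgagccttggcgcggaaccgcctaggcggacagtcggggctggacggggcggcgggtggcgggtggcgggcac
Kif11: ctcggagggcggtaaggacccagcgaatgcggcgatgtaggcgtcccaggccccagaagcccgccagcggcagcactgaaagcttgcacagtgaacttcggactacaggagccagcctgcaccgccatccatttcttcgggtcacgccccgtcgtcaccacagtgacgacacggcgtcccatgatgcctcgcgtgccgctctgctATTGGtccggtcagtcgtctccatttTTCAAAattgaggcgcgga
The last match ended 17 bases before the start for Top2a, 92 for Mki67 and 13 for Kif11. Among 46 S-phase genes 37 had windows (45 in all), and 26.7% of these held the E2F sites TTTGGCGC or TTTCCCGC, against 1.56% of all windows and 2.83% of windows of genes tested, and 62.2% held CCAAT. Lists with windows for a smaller share of their members were searched as well. The sterol element TCACNCCAC was in 0 of 18 windows of cholesterol synthesis genes (15 of 23 genes had one). It was in 1.24% of all windows and 1.10% of windows of genes tested. CCAAT was in 15 of these 18 windows (83.3%). The AP-1 site TGANTCA was in 0 of 13 windows of AP-1 and immediate early genes (9 of 14), against 7.81% and 5.16%. CCAAT was in 10 of 31 windows of lysosome genes (26 of 33), 32.3% against 37.4% and 38.0%. These windows were few, and no difference was tested. A match is a description of these letters and not a binding site that was measured.

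Genes of amino acid supply and charging rose as groups. Of 30 targets of ATF4, the factor translated under amino acid shortage, together with serine and one-carbon genes, 28 rose and 1 fell (median 0.60). Slc7a11, the cystine importer, was at 1071, 1197 and 1246 in the control libraries and 2627, 2519 and 2701 in the HMT siRNA libraries (1.16 ± 0.11, adjusted p = 4.05e-06). Asns, asparagine synthetase, was at 3627, 3633 and 3416 in the control libraries and 6083, 6105 and 6262 in the HMT siRNA libraries (0.79 ± 0.03), and Cth, which makes cysteine, was at 359.7, 368 and 356 in the control libraries and 844, 877 and 865 in the HMT siRNA libraries (1.25 ± 0.06). The groups did not overlap for these genes. Mitochondrial folate enzyme genes rose strongly (Mthfd1l (1.14) and Mthfd2 (0.82)), Atf4 itself rose (0.51), and Cebpg (-0.09), a partner of ATF4, was the one that fell, a call not kept without HMT siRNA replicate 1 or control replicate 1. Of 20 cytosolic aminoacyl-tRNA synthetase genes 19 rose and none fell (median 0.43), from Qars (0.10) to Wars (0.87), and Dars did not pass (0.07).

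The C/EBP-ATF response element TGATGNAA was found in 32.1% of 28 windows of the ATF4 list (25 of 30 genes had one), in 3.97% of all windows and in 2.31% of windows of genes tested. Windows were found for only 13 of the 20 synthetase genes, and 5 of these 13 windows held the element (38.5%). The bases before the start are shown for genes with a single window that held the element upstream. Those with the largest log2 fold changes were taken, with the same chromosome left out as for the mitosis genes. The element on either strand is in capitals: Slc7a11 at chr3:50443614-50443863, minus strand, Asns at chr6:7693210-7693459, minus strand and Chac1, a glutathione-degrading enzyme gene (0.74), at chr2:119350992-119351241, plus strand.
Slc7a11: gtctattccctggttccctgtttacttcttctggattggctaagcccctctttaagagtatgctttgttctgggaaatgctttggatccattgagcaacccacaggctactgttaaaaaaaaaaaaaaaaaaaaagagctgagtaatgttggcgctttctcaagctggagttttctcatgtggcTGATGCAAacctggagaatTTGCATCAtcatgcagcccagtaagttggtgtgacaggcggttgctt
Asns: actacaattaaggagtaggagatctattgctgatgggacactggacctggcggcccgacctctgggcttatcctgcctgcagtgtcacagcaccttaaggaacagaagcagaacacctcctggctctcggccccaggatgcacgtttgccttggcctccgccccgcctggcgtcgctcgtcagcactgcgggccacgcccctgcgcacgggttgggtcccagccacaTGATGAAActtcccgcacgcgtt
Chac1: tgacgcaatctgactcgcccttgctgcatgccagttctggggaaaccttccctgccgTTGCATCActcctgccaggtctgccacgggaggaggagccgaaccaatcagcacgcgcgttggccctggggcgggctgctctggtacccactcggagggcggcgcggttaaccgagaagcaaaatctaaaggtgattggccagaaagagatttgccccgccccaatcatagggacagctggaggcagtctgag
Slc7a11 held the element on both strands, 39 bases from the start at the nearest, Asns held it 15 bases away and Chac1 185 bases away.

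Machinery for making and folding proteins moved by smaller amounts. Of 25 ribosome biogenesis genes 24 rose and none fell (median 0.42). Polr1a, the large subunit of the RNA polymerase that transcribes ribosomal RNA, was at 2052, 1773 and 1890.4 in the control libraries and 4088, 3932 and 4097 in the HMT siRNA libraries (1.09 ± 0.04), the only member past 2-fold. Dkc1, of the pseudouridylation complex (0.84), and the box C/D proteins Nop56 (0.74) and Nop58 (0.70) rose. Of 20 unfolded protein response genes 16 rose, none by 2-fold, with the oxidase gene Ero1l (0.85) first. Hspa5, the chaperone BiP of the endoplasmic reticulum, went from 23623 ± 154 to 31363 ± 666 (0.41). Of 14 cytosolic heat shock genes 10 rose and 1 fell, and Hsp90ab1 (-0.06), which fell, was not past the test without any of the HMT siRNA libraries or control replicate 1. Nor did it pass under quantile normalisation or in a fit of the siRNA libraries alone without a replicate block. The 45 ribosomal protein genes themselves went the other way by little, with 30 lower and 2 higher (median -0.11). Without HMT siRNA replicate 3 only 19 were lower and without control replicate 2 6 were higher. These genes have many near-identical processed copies, so single values are uncertain.

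Cartilage genes were the group with the deepest falls. Of 20 cartilage matrix and secreted genes 19 fell, 17 of them at least 2-fold, and 1 rose (median -2.14). Cmtm5 fell most, at 134, 173 and 169 in the control libraries and 6.64, 8.21 and 8.25 in the HMT siRNA libraries (-4.19 ± 0.21). Acan, which encodes the proteoglycan aggrecan, was at 119.9, 104 and 118 in the control libraries and 5.53, 5.97 and 6.19 in the HMT siRNA libraries (-4.06 ± 0.28, adjusted p = 7.06e-11). Col27a1, a fibrillar collagen of growth plate cartilage, was at 3591, 3474 and 3862 in the control libraries and 558, 594 and 605 in the HMT siRNA libraries (-2.63 ± 0.05). Col9a2 and Col9a3, subunits of the type IX collagen that decorates type II fibrils, fell by 3.45 and 2.13 on the log2 scale, and their partner subunit Col9a1 by 1.42. The matrilin genes split: Matn3 (-1.80) and Matn4 (-1.80), found in cartilage, fell, whereas Matn2, the broadly expressed one, was the member that rose, at 1799, 1700.3 and 1768 in the control libraries and 3008, 2965 and 2875 in the HMT siRNA libraries (0.75 ± 0.04). Col11a2 (-0.58) and Cytl1 (-0.53) fell least.

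Among cartilage transcription factors, Sox6 and Sox5, the pair that works beside Sox9, fell by 2.03 and 1.57 on the log2 scale and Sox9 by 1.32. Sox6 was at 581, 549.6 and 609 in the control libraries and 126, 134 and 166 in the HMT siRNA libraries. Runx3 (0.45) and Foxc1 (0.61) rose, so that 5 of 8 fell and 2 rose. Even in control cells the matrix genes were low beside the H3.3 wild-type line, with mean values below it for 16 of 20 genes in control and 18 of 20 in HMT siRNA cells. Fmod was at 102 ± 9.18 (SD, n = 3) in control cells, 5.86 ± 1.87 in HMT siRNA cells and 2609 ± 105 (SD, n = 2) in the wild-type line. Related tissues of the skeleton followed in part, with 6 of 8 tendon and ligament genes lower. Tnmd, the tendon membrane protein tenomodulin, was at 1414, 1477 and 1622 in the control libraries and 259, 293 and 245 in the HMT siRNA libraries (-2.50 ± 0.06), and the tendon factor gene Scx fell by 0.40 on the log2 scale.

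The wider extracellular matrix was rearranged without a common direction. Of 11 small leucine-rich proteoglycan genes 8 fell and 1 rose. Aspn, which encodes asporin, was at 15197, 15046 and 17943 in the control libraries and 6497, 6689 and 7169 in the HMT siRNA libraries (-1.24 ± 0.07), Ogn (-0.80) and Prelp (-1.19) also fell at high levels, and Dcn, which encodes decorin, rose (0.91). Bgn, the most abundant of them, did not pass (-0.03). Of 18 collagen genes outside cartilage 10 rose and 7 fell. Col1a1, the main chain of type I collagen, was at 195771, 179726 and 165979 in the control libraries and 330468, 320614 and 329099 in the HMT siRNA libraries (0.86 ± 0.05), the largest rise of any gene in value. Col1a2 also rose (0.38), but under quantile normalisation its value was -0.13. Col18a1, a basement membrane collagen, rose (1.54) and the type VIII chains Col8a1 (-1.21) and Col8a2 (-1.44) fell.

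Elastic fibre genes included Eln, which encodes elastin, at 4547, 4584 and 4196 in the control libraries and 1087, 1139 and 1218 in the HMT siRNA libraries (-1.95 ± 0.07), with Fbn2 (-1.24), Fbln5 (-0.91) and the crosslinking enzyme gene Lox (-0.75) also lower. In all 8 of 19 fell and 5 rose, and Fbn1, the main fibrillin gene, did not pass (0.07). Of 22 matrix protease and inhibitor genes 12 fell and 6 rose. Adamts1, an aggrecan- and versican-cleaving protease, was at 16258, 15879.5 and 15996 in the control libraries and 36434, 36309.9 and 35213 in the HMT siRNA libraries (1.17 ± 0.03), and Adamts5 (0.96) and the urokinase receptor gene Plaur (1.34) rose. Membrane-type protease genes Mmp14 (-0.67) and Mmp15 (-1.94) and the inhibitor genes Timp2 (-0.60) and Serpine2 (-0.86) fell. Among 17 integrins, 7 fell and 5 rose, against 33.5% and 33.3% of all genes tested. Itgb4 (-1.21) and Itga1 (-1.03) led the falls. Itgb7 led the rises, at 44.0, 26.4 and 31.1 in the control libraries and 208, 195 and 216 in the HMT siRNA libraries (2.60 ± 0.14).

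Bone mineral genes rose for 6 of 8. Spp1, which encodes osteopontin, was at 3132, 3019 and 3022 in the control libraries and 33949, 32822 and 34201 in the HMT siRNA libraries (3.46 ± 0.04), and it was among the genes whose change was largest beside the spread of its libraries. Dmp1, an osteocyte phosphoprotein gene, was at 19.7, 5.02 and 10.1 in the control libraries and 124, 132 and 118 in the HMT siRNA libraries (3.49 ± 0.37). Ank, a pyrophosphate transporter gene (0.79), and Mgp, an inhibitor of calcification (0.85), rose, while Enpp1, the ectoenzyme that makes pyrophosphate, fell (-1.14). Of 10 osteoblast regulators 4 rose and 5 fell. Pth1r, the receptor for parathyroid hormone, fell by 1.16 on the log2 scale and Runx2 by 0.17. The rise of Tnfrsf11a, the receptor RANK (0.68), had overlapping libraries and did not pass without HMT siRNA or control replicate 3, when 2 of the list were higher. Nor did Tnfrsf11a pass with eBayes run without trend and robust.

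Fat genes fell more often than they rose, for 9 of 16 lipid genes against 3. G0s2, an inhibitor of triglyceride breakdown, was at 791, 847 and 778 in the control libraries and 105, 116 and 102 in the HMT siRNA libraries (-2.89 ± 0.12). Cebpa, an inducer of fat cell differentiation, fell by 1.74 on the log2 scale, whereas Pparg, its partner, rose slightly (0.15) and Ebf2, a factor of early fat progenitors, was at 89.5, 56.5 and 70.9 in the control libraries and 170.4, 143 and 199 in the HMT siRNA libraries (1.24 ± 0.18). Angptl4, a lipoprotein lipase inhibitor gene, rose (1.09). Of 20 smooth muscle and actin genes 10 fell and 5 rose, with Actg2 (-1.57) and Lmod1 (-1.27) lowest, Acta2 at 33523, 35216 and 33892 in the control libraries and 24096, 24391 and 23045 in the HMT siRNA libraries (-0.52 ± 0.04) and the tropomyosin gene Tpm4 (0.81) higher. Of 13 YAP and TAZ target genes 4 rose and 3 fell, against 33.3% and 33.5% of all genes tested. Without control replicate 2, 7 of them were lower, and under quantile normalisation 8 were. Ankrd1, a nuclear partner in stretched muscle, was at 21.2, 22.6 and 32.9 in the control libraries and 189, 163 and 192 in the HMT siRNA libraries (2.80 ± 0.20), but Ctgf did not pass (-0.08) and Cyr61 fell (-0.56).

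**Figure D3:**
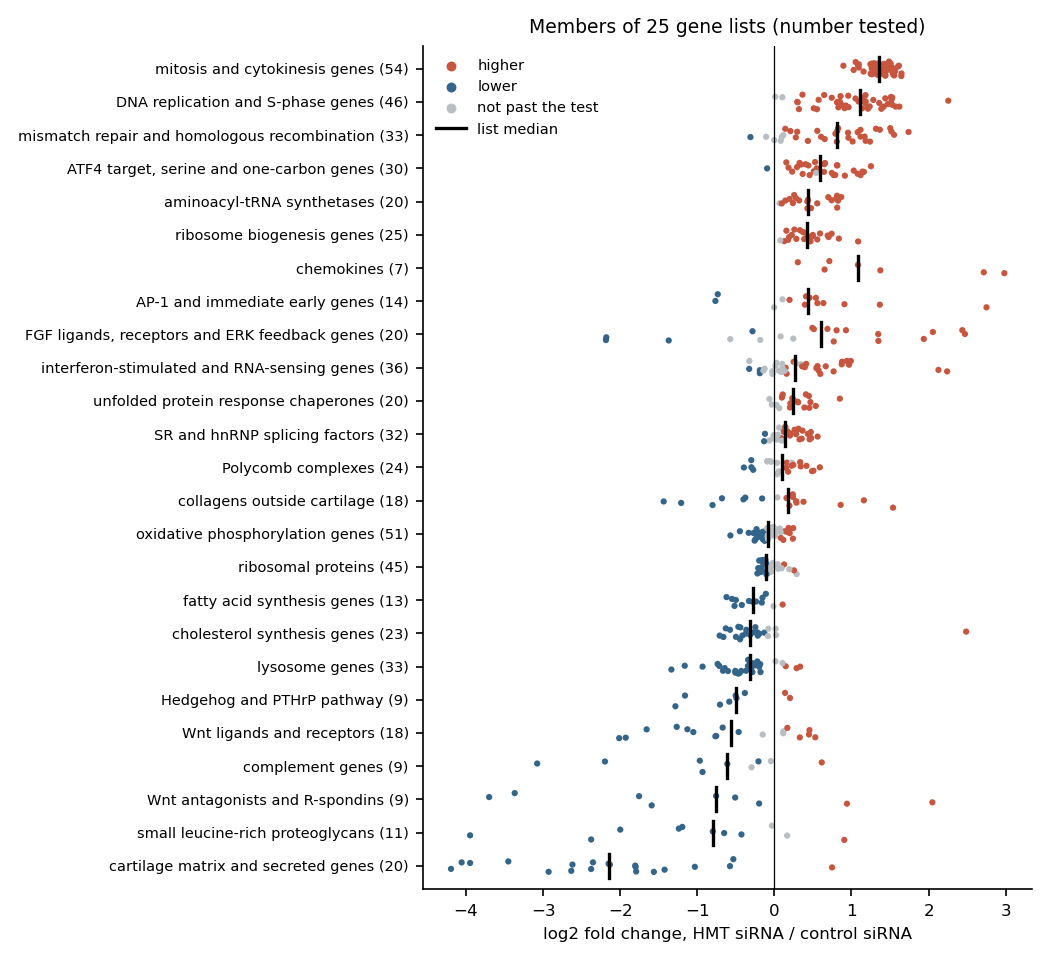
Log2 fold change of every tested member of 25 gene lists (points; horizontal axis, HMT siRNA over control siRNA), coloured by call, with the list median as a black bar and the number tested in brackets. Mitosis genes sit together around their median of 1.35, and cartilage matrix genes spread over the widest range of falls around -2.14.

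In FGF signalling the receptor genes that passed were lower, and the ERK feedback and ETV genes that passed were higher. Among FGF receptors, which act through the ERK kinases, Fgfr2 was at 1317, 1339.6 and 1427 in the control libraries and 303, 320.1 and 277 in the HMT siRNA libraries (-2.18 ± 0.08). Fgfr3, the receptor that slows growth of cartilage, was at 499, 453 and 463 in the control libraries and 97.2, 92.7 and 121 in the HMT siRNA libraries (-2.18 ± 0.09), the non-kinase receptor Fgfrl1 fell by 1.37 on the log2 scale and the most abundant one, Fgfr1, by 0.28. The only ligand gene that passed was Fgf7 (0.69). Spry1, a feedback inhibitor of receptor tyrosine kinases, was at 33.4, 22.6 and 29.4 in the control libraries and 143, 158 and 170.2 in the HMT siRNA libraries (2.44 ± 0.16), and Dusp4, a phosphatase of nuclear ERK, was at 252, 184 and 197 in the control libraries and 859.5, 723 and 838 in the HMT siRNA libraries (1.94 ± 0.10). The ETV transcription factors moved together, with Etv4 at 69.8, 64.0 and 53.6 in the control libraries and 346, 331 and 370.4 in the HMT siRNA libraries (2.47 ± 0.13), Etv1 at 2.06 and Etv5 at 1.35 on the log2 scale. In all 12 of 20 genes of this list rose and 4 fell, and the libraries of the groups did not overlap for the genes named except where a value is said not to pass.

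Among 9 genes of EGF receptors and their ligands 4 rose and 3 fell, against 33.3% and 33.5% of all genes tested. Ligands were on both sides. Ereg, which encodes epiregulin, was at 100.1, 79.1 and 106 in the control libraries and 392, 368 and 469 in the HMT siRNA libraries (2.10 ± 0.11), and Hbegf was at 94.1, 107 and 91.7 in the control libraries and 377, 319 and 394 in the HMT siRNA libraries (1.88 ± 0.10). Areg, which encodes amphiregulin, stood at low values, 1.52, 2.51 and 3.46 in the control libraries and 12.2, 17.2 and 16.5 in the HMT siRNA libraries. It passed the filter only through the HMT siRNA libraries, so the direction of Areg was fixed by the filter and is no result. The receptor genes Erbb3 (-1.82) and Egfr (-0.48) and the ligand gene Tgfa (-0.66) fell. Of 14 AP-1 and immediate early genes 10 rose and 2 fell. Fosl1, the FOS family member that accumulates under sustained ERK activity, was at 57.1, 53.1 and 50.7 in the control libraries and 343, 339 and 422 in the HMT siRNA libraries (2.75 ± 0.12), and Egr3 (1.37) and Egr1 (0.91) rose. Fos fell (-0.73), as did Fosb (-0.76), which did not pass without HMT siRNA replicate 1 or 3 or control replicate 1 or 2.

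**Figure D4:**
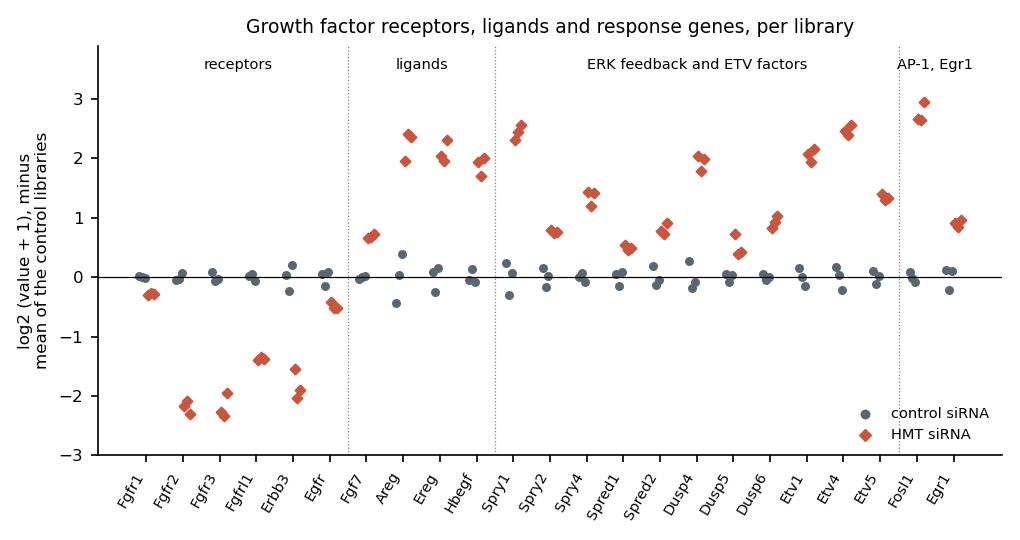
Log2(value + 1) of each library minus the mean of the control siRNA libraries (vertical axis) for receptors, ligands, ERK feedback and ETV genes, Fosl1 and Egr1; grey circles are control siRNA and orange diamonds HMT siRNA libraries. Fgfr2, Fgfr3, Fgfrl1 and Erbb3 lie more than 1 unit below the control mean, and Spry1, Etv4 and Fosl1 more than 2 units above it.

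The insulin-like growth factor (IGF) system held one of the largest falls. Igf1, the growth factor itself, was at 4193, 4069 and 5088 in the control libraries and 362, 322 and 398 in the HMT siRNA libraries (-3.62 ± 0.11, adjusted p = 2.28e-10), and its receptor gene Igf1r rose (0.61). Igfbp4, a binding protein gene, was at 774, 829 and 732 in the control libraries and 1869, 1864 and 1797 in the HMT siRNA libraries (1.24 ± 0.04). Igfbp5 was at 1471, 1511 and 1762 in the control libraries and 313, 288 and 259 in the HMT siRNA libraries (-2.46 ± 0.86, adjusted p = 0.0421), with no overlap. That call was lost on leaving out any 1 of the siRNA libraries or with no filter on low values, and it was kept in a fit of the 6 siRNA libraries alone. The H3.3 wild-type libraries, which share the estimate of spread, were at 0 and 11.7, and their part in the lost calls was not tested. Of 14 genes 5 rose and 5 fell, near the 33.3% and 33.5% of all genes tested, so this list did not stand apart by its counts. Among other secreted factors, Nov, a CCN family matrix protein, was at 27621, 28402 and 28619 in the control libraries and 6315, 6484 and 6364 in the HMT siRNA libraries (-2.14 ± 0.03) and Angptl1 at 1038, 1056 and 1216 in the control libraries and 79.7, 95.5 and 87.7 in the HMT siRNA libraries (-3.64 ± 0.38).

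Wnt signalling genes fell on several levels of the pathway. Of 18 ligand and receptor genes 10 fell and 5 rose. The receptor gene Fzd8 was at 1837, 1790.0 and 1752 in the control libraries and 467, 469 and 475 in the HMT siRNA libraries (-1.93 ± 0.05), and Fzd9 (-1.66), Fzd4 (-1.05), the coreceptor gene Lrp5 (-1.13) and the ligand gene Wnt5b (-2.01) fell. Of 9 antagonist and R-spondin genes 7 fell and 2 rose. Sfrp2, a secreted Wnt-binding antagonist, was at 999, 1088 and 1126 in the control libraries and 75.3, 70.9 and 101 in the HMT siRNA libraries (-3.70 ± 0.16), and Frzb, another that is abundant in cartilage, at 906, 882 and 1058 in the control libraries and 68.6, 99.2 and 109 in the HMT siRNA libraries (-3.37 ± 0.13). Notum, the lipase that inactivates Wnt proteins, rose from low values, 30.4, 21.3 and 32.9 in the control libraries and 115, 118 and 121 in the HMT siRNA libraries (2.05 ± 0.14). Dkk2 also rose (0.94), and only 1 of the list was higher without HMT siRNA replicate 2 or 3 or control replicate 3. Of 8 Wnt target genes 5 fell, led by Nkd1, a feedback inhibitor, at 78.9, 104 and 84.7 in the control libraries and 19.9, 18.7 and 16.5 in the HMT siRNA libraries (-2.22 ± 0.16), while Ccnd1 and Myc (0.41), which many pathways drive, rose. With a filter at 50, 3 of the 5 targets still tested were lower.

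In the BMP and TGF-beta family, 9 of 16 ligand and antagonist genes fell and 4 rose. Grem1, an antagonist of BMPs, was at 590.3, 513 and 519.8 in the control libraries and 2518, 2403 and 2467 in the HMT siRNA libraries (2.19 ± 0.06), and Bambi, a decoy receptor, was at 419, 445 and 449 in the control libraries and 76.4, 78.3 and 85.6 in the HMT siRNA libraries (-2.44 ± 0.09). Tgfb2 (-1.48), Fstl1 (-0.60) and Inhba (-0.62) fell. Of 22 receptor, Smad and Id genes 10 fell and 2 rose, and the BMP target genes Id1 (-0.30), Id2 (-0.21), Id3 (-0.49) and Smad6 (-0.70) were all lower. Hedgehog and PTHrP pathway genes fell for 7 of 9. The coreceptor gene Boc was at 3865, 3681 and 3957 in the control libraries and 1547, 1565 and 1609 in the HMT siRNA libraries (-1.28 ± 0.04) and the target and receptor gene Ptch1 (-0.71) fell, while Gli1, another target, rose slightly (0.20). The small rises of Gli1 and Gli3 (0.14) were not both kept without HMT siRNA replicate 1 or 3 or control replicate 3. Of 11 Notch genes 5 fell and 5 rose. The target genes Hey2 (-3.30) and Hey1 (-1.64) and the receptor gene Notch1, at 4539, 4062 and 4374 in the control libraries and 1678, 1635 and 1646 in the HMT siRNA libraries (-1.39 ± 0.04), fell, whereas the nuclear mediator gene Rbpj was at 3581, 3194 and 3442 in the control libraries and 8522, 8219.7 and 8596 in the HMT siRNA libraries (1.31 ± 0.04) and Notch3 rose (0.97).

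Guidance molecules, which steer axons and also mesenchymal cells, fell for 20 of 34 genes and rose for 9. Plxnb1, a semaphorin receptor, was at 1214, 1157 and 1240.1 in the control libraries and 175, 193 and 195 in the HMT siRNA libraries (-2.68 ± 0.08). Sema7a, a membrane-anchored semaphorin, was at 34.9, 30.1 and 29.4 in the control libraries and 184, 170.1 and 193 in the HMT siRNA libraries (2.50 ± 0.15), and Epha2, an ephrin receptor, at 643, 679 and 564 in the control libraries and 2141, 1944 and 2112 in the HMT siRNA libraries (1.72 ± 0.06). Of 14 cadherin and tight junction genes 7 rose and 6 fell, with Cldn19 at 352, 359 and 387 in the control libraries and 26.6, 20.9 and 17.5 in the HMT siRNA libraries (-4.04 ± 0.15) and N-cadherin, Cdh2, lower (-0.54). Among the rises, Cldn1 (1.93) passed the filter only through the HMT siRNA libraries. Cldn15 (1.21) had overlapping libraries and did not pass without HMT siRNA replicate 1 or 3 or control replicate 2. Nor did Cldn15 pass in a fit of the siRNA libraries alone without a replicate block, or with eBayes run without trend and robust. Patterning factors split into 10 higher and 11 lower of 29, near the 33.3% and 33.5% of all genes tested, so this list did not stand apart. Twist2 rose (1.32) and Meox1 fell (-2.32). Of 9 Hox genes tested 3 fell (Hoxa4 (-0.86), Hoxa3 (-0.51) and Hoxa2 (-0.46)), near the share of all genes that fell, and none rose.

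All 7 chemokine genes tested rose. Ccl2, which attracts monocytes, was at 36.4, 35.1 and 27.7 in the control libraries and 248, 276 and 277 in the HMT siRNA libraries (2.98 ± 0.14), and Ccl7, its neighbour in function, at 22.8, 20.1 and 10.4 in the control libraries and 106, 115 and 129 in the HMT siRNA libraries (2.72 ± 0.24). Cxcl12, the homing factor of stromal cells, was at 16922, 16928 and 16695 in the control libraries and 27892, 27752 and 27210.5 in the HMT siRNA libraries (0.71 ± 0.03). The groups did not overlap for any of the 7, and 12 other chemokine genes of the list were below the filter. Of 19 cytokine genes 10 rose and 6 fell, and with a filter at 50, 6 of the 12 still tested were higher. Csf1, which sustains macrophages, was 2.57-fold higher and Lif was at 33.4, 31.4 and 19.02 in the control libraries and 137, 132 and 140.3 in the HMT siRNA libraries (2.29 ± 0.19). Il1rn, the antagonist of the interleukin 1 receptor, was at 18526, 18479.6 and 18950.2 in the control libraries and 5613, 5775 and 5836 in the HMT siRNA libraries (-1.70 ± 0.03). Il1rl1, the receptor for interleukin 33, was at 50.1, 30.1 and 53.6 in the control libraries and 456, 435 and 509 in the HMT siRNA libraries (3.40 ± 0.18), and Il33 itself rose from low values (2.37). Il33 passed the filter only through the HMT siRNA libraries, so its direction was fixed by the filter.

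Complement genes fell for 6 of 9 and rose for 1. C3, the central component, was at 264, 317 and 367 in the control libraries and 34.3, 39.5 and 35.1 in the HMT siRNA libraries (-3.08 ± 0.11). Of 36 interferon-stimulated and RNA-sensing genes 19 rose, 3 fell and 14 did not pass. Oas1a, a sensor of double-stranded RNA with close copies, was at 16.7, 10.1 and 14.4 in the control libraries and 65.2, 63.3 and 73.9 in the HMT siRNA libraries (2.24 ± 0.26), Oasl2 (2.13) rose, and the abundant members moved less (Ifitm3 (0.54) and Ifit1 (0.77)). Among 15 antigen presentation genes the class I genes H2-K1 (0.90) and H2-D1 (0.97), which share sequence, rose and B2m, their partner chain, fell (-0.41). In all 3 rose and 4 fell, and 5 were higher without HMT siRNA replicate 3.

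Lipid synthesis and lysosome genes fell together by small amounts. Of 23 cholesterol synthesis genes 18 fell and 1 rose (median -0.31). Mvd, an enzyme of the mevalonate steps, was at 1352, 1410.4 and 1216 in the control libraries and 824, 832 and 771 in the HMT siRNA libraries (-0.71 ± 0.05), and Dhcr7 (-0.66) and Hsd17b7 (-0.58) fell. Of 13 fatty acid synthesis genes 11 fell, among them Scd2, a desaturase, at 61705, 60376 and 63201 in the control libraries and 40122, 40285 and 40059 in the HMT siRNA libraries (-0.62 ± 0.03), and Acly (-0.55). Acsl4 rose (0.11), a call that was lost without any of 5 of the 6 siRNA libraries, the exception being control replicate 1. Its call was also lost under quantile normalisation, with no filter on low values and with eBayes run without trend and robust. Of 33 lysosome genes 28 fell and 3 rose (median -0.32). Lamp1, the main lysosomal membrane protein, was at 34168, 35629.8 and 33422 in the control libraries and 24402, 24579 and 23680.5 in the HMT siRNA libraries (-0.51 ± 0.03), and the hydrolase genes Idua (-1.16), Neu1 (-0.93) and Hexa (-0.74) fell, while the regulator gene Tcfe3 rose (0.29).

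Genes of energy metabolism were mixed. Of 51 oxidative phosphorylation genes 18 fell, 9 rose and 24 did not pass, all by under 2-fold, with Uqcrh (-0.57) and Ndufb3 (-0.45) lowest. The share that fell was near the 33.5% of all genes tested. Of 33 glycolysis and hypoxia genes 14 rose and 11 fell, the share that fell again near that of all genes tested. Pfkfb3, which sets the rate of glycolysis, was at 812, 826 and 884 in the control libraries and 367, 359.6 and 336 in the HMT siRNA libraries (-1.24 ± 0.06), Ndrg1 fell (-0.94) and Gapdh, often used as a reference gene, was at 41304, 41792 and 36631 in the control libraries and 56612, 56113 and 55159 in the HMT siRNA libraries (0.49 ± 0.04). Of 19 NRF2 target genes 8 rose and 4 fell, with the glutathione synthesis genes Gclc (0.81) and Gclm (0.60) higher and the quinone reductase gene Nqo1 (-0.84) lower.

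Chromatin genes that read or remove H3K36 methylation did not stand apart as a list. Of 20 H3K36 demethylase and reader genes 7 rose and 5 fell, against 33.3% and 33.5% of all genes tested, or 8 fell under quantile normalisation, and their median changed sign with it (0.02 and -0.02). Phf19, a Polycomb-like reader of trimethylated H3K36, was at 100.2, 96.6 and 93.4 in the control libraries and 279.6, 263 and 305 in the HMT siRNA libraries (1.54 ± 0.08), Psip1, a reader that tethers splicing and repair factors, was at 2023, 1839 and 1922 in the control libraries and 3022, 3004 and 3087 in the HMT siRNA libraries (0.66 ± 0.04), and the demethylase gene Kdm4b fell (-0.36). Of 24 Polycomb genes 11 rose, including the core subunit genes Ezh2 (0.33), Suz12 (0.51) and Eed (0.49), and 4 fell, including Ezh1 (-0.30) and Jarid2 (-0.40). None reached 2-fold. Dnmt1, the maintenance DNA methyltransferase, and its guide Uhrf1 rose (1.09 and 1.44). Tet1, which oxidises methylcytosine, was at 684, 483 and 624 in the control libraries and 279, 275 and 264 in the HMT siRNA libraries (-1.11 ± 0.09), and the H3K36-binding enzyme gene Dnmt3a fell (-0.22).

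RNA processing genes moved by less than 2-fold. Of 32 SR and hnRNP splicing factor genes 21 rose and 2 fell (median 0.14), led by Ptbp1, a repressor of exon use, at 7654, 7266 and 7307 in the control libraries and 10846, 10766 and 11162 in the HMT siRNA libraries (0.56 ± 0.03). Of 22 transcription elongation genes 13 rose and 3 fell, with Ssrp1 of the histone chaperone FACT (0.60) highest and Tcea2 (-0.90) lowest. Imprinted genes fell for 12 of 15. Mest was at 3718, 3926 and 4097 in the control libraries and 1013, 1050.3 and 1115 in the HMT siRNA libraries (-1.88 ± 0.06), and Peg10, a retrotransposon-derived gene, was the one that rose, at 366, 324 and 336 in the control libraries and 1279, 1189 and 1352 in the HMT siRNA libraries (1.89 ± 0.06). Of 15 circadian genes 8 fell and 5 rose, with the opposing clock genes Arntl (0.96) and Per2 (1.13) both higher.

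The largest single changes lay partly outside these pathways. Sprr1a, a cornified envelope protein known from squamous epithelium and from stressed muscle and nerve, was listed at 0 in every control library and at 260.1, 215 and 226 in the HMT siRNA libraries, the only gene to go from 0 to at least 10 in every library. Naip7 did the reverse. Styk1, a kinase-like membrane protein gene, was at 12.1, 8.78 and 0 in the control libraries and 208, 204 and 202 in the HMT siRNA libraries, Msln, which encodes mesothelin, at 7.59, 13.8 and 8.65 in the control libraries and 144, 122 and 149.6 in the HMT siRNA libraries, and Prkg2, a cGMP-dependent kinase of cartilage growth, at 159, 181 and 216 in the control libraries and 1294, 1269 and 1449 in the HMT siRNA libraries (2.85 ± 0.11). The placental proliferin gene Prl2c2 was at 3.04, 4.49 and 0 in the control libraries and 203, 223 and 213 in the HMT siRNA libraries, but it, Prl2c3 and Sprr2k have near-identical copies among which reads may have been split. Scg2, a granin of secretory granules, was at 189.7, 186 and 187 in the control libraries and 14.4, 13.4 and 16.8 in the HMT siRNA libraries (-3.58 ± 0.18), Bmx, a non-receptor kinase gene, at 250.4, 266 and 265 in the control libraries and 14.4, 23.1 and 16.5 in the HMT siRNA libraries (-3.81 ± 0.17) and Padi2, which converts arginine to citrulline, at 1191, 1216 and 1219 in the control libraries and 121, 102 and 117 in the HMT siRNA libraries (-3.41 ± 0.06). Genes of this kind were chosen for size and for groups that do not overlap, so neither is a result.

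**Figure D5:**
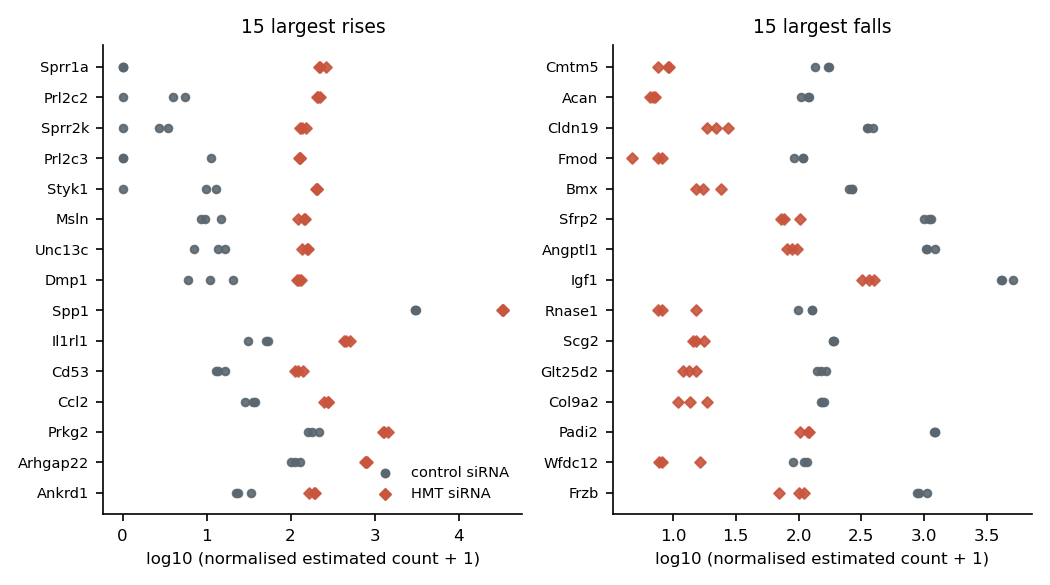
Log10(normalised estimated count + 1) of each control siRNA (grey circles) and HMT siRNA library (orange diamonds) for the 15 largest log2 rises and 15 largest log2 falls among genes with a mean of at least 100 in the higher group and groups that do not overlap, both by choice. Spp1 and Igf1 are the most abundant of the rises and falls.

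Some of the tightest changes concerned abundant membrane and enzyme genes. Slc44a2, a choline transporter-like protein gene, was at 9660.1, 9735 and 9775 in the control libraries and 3227, 3291 and 3279 in the HMT siRNA libraries (-1.57 ± 0.03). Ptgs1, the constitutive cyclooxygenase, was at 3896, 3866 and 3901 in the control libraries and 10965, 10567 and 10618 in the HMT siRNA libraries (1.46 ± 0.03). Wwp2, a ubiquitin ligase of the NEDD4 family whose gene hosts a cartilage microRNA, was at 17895, 18033 and 18543 in the control libraries and 6997, 7151 and 7017 in the HMT siRNA libraries (-1.36 ± 0.03), and Nedd4, the founding member of that family, had the largest fall in value, at 76631, 73324 and 79331 in the control libraries and 44847, 44006 and 44339.9 in the HMT siRNA libraries (-0.78 ± 0.03). Apart from Nedd4, these genes were chosen for closeness of the libraries within a group at a 2-fold change, so that closeness is no result.

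Markers of other cell types were low beside the mesenchymal ones, which summed to 578924 to 620468 in control and 797894 to 807015 in HMT siRNA libraries. Most of that sum was Col1a1 and Col1a2, with means of 180492 and 206119 in control and 326727 and 267680 in HMT siRNA libraries. Of 13 mesenchymal markers tested 8 rose, 3 fell and 2 did not pass. Summed values were 70.98 to 74.4 in control and 69.7 to 87.3 in HMT siRNA libraries for 6 epithelial markers, 25.8 to 43.98 and 24.4 to 38.2 for 6 macrophage markers, and 1.25 to 3.04 and 0 to 3.1 for 4 lymphocyte markers. The 6 endothelial markers summed to 190.2 to 217 in control and 43.2 to 65.7 in HMT siRNA libraries, nearly all of it Tek, the angiopoietin receptor, at 209, 209.6 and 187 in the control libraries and 38.7, 58.2 and 54.7 in the HMT siRNA libraries (-1.996 ± 0.12). The 5 skeletal muscle markers summed to 86.5 to 118 in control and 53.1 to 72.2 in HMT siRNA libraries, and Acta1 (-0.84) and Des (-0.62) were the members tested and fell. Of 5 neural and glial markers Mbp fell (-0.85) and Gfap did not pass (-0.01).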

How the data were processed

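Per the labels' protocols, RNA was extracted with Trizol and libraries were made with the TruSeq kit. The submitters' processing notes name Bowtie 1.0.0, RSEM 1.2.12 and the mm9 build. What the authors deposited is a signal: estimated counts over a library factor, brought to a common level by the median normalisation that the file is named for. Values are multiples of 0.01 of a step per library, which gave the depths. Only 47.4 to 58.3% of values in the 6 siRNA libraries were whole (tolerance 0.01), so the main test was not a count test. The alternative with limma voom used the estimated counts. 

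The test was limma 3.58.1 (R 4.3.3), run on log2(value + 1) with the trend and robust options of eBayes. It was two-sided, p-values were adjusted by Benjamini-Hochberg over all 12248 genes, and the threshold was 0.05. The fit held 10 libraries of the table (control siRNA, HMT siRNA, H3.3 wild-type and H3.3K36M cells), which shared the estimate of spread. The log2(value + 1) scale understates changes of low genes. Called genes at least 2-fold apart were also counted. A gene under 10 in every library of 1 siRNA group passed the filter only through the other group, which fixed its direction. The script was tested on simulated data.

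The comparison, the 64 gene lists and the 7 marker lists were chosen with earlier results of these data known, so counts describe the lists and no list was tested. Genes named are the targets, the 15 largest log2 rises and falls with a mean of at least 100 in the higher group and no overlap, the 8 largest rises and falls in value, the 6 tightest 2-fold changes at a mean of at least 1000, up to 4 called members of a list with the largest log2 fold change, and any member whose role is described. Some list members are counted but not reported by name here. Promoter windows are RefSeq's (GRCm38.p6), matched by symbol and not by coordinate. Other steps used Python 3.11.15, numpy 2.4.6, pandas 2.3.3 and matplotlib 3.10.9.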

Additional observations from a re-analysis of the deposited data

How the results depend on the processing

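The comparison was repeated under 15 alternatives: other scalings, filters, a pseudocount of 5, other variance models, limma voom, the siRNA libraries alone and each siRNA library left out. The counts of higher and lower genes kept within 1.5 times, with 7614 to 8139 genes called when 1 library was left out. Without a filter on low values 848 genes were at least 2-fold higher, in place of 558, which rests on the added low genes. Under quantile normalisation Col1a2 was at -0.1342 and Fn1, which encodes fibronectin, at 0 in place of 0.10, and the cause was not tested. With the replicate number as a block 8458 genes were called, and 98.97% of the 8179 calls were shared. Deviations of libraries of the same number correlated at 0.083, 0.101 and 0.112, higher than with other numbers in each case but not above 0.1 in every case, and no label says that a number marks a shared culture, so the pairing was not used. Depth limits what can be said of genes under a mean of 30, where the median SE was 0.307 against 0.036 from a mean of 3000.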

Other observations

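A few large differences did not pass. Gm14440, a predicted gene chosen here after its values were seen, was listed at 0, 0 and 539 in the control libraries and at 199.5, 373 and 364 in the HMT siRNA libraries, with the largest log2 fold change of any gene that did not pass (5.21 ± 3.17 SE, adjusted p = 0.194, limma with Benjamini-Hochberg adjustment). Hist1h2ai, a histone gene with near-identical copies, was at 0, 20.3 and 0 in the control libraries and at 17.0, 20.7 and 11.8 in the HMT siRNA libraries (2.63 ± 1.19, adjusted p = 0.0938). In both genes 2 of 3 control libraries were at 0. The third was above every HMT siRNA library for Gm14440 and within their range for Hist1h2ai.

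The balance of calls shifted with the level of a gene. Between a mean of 100 and 300, 27.6% of 1542 genes were higher and 37.4% lower, and between 300 and 1000 the shares were 33.6% and 34.0% of 3511 genes. Every control library was shallower than every HMT siRNA library, and the part of depth in this shift was not tested.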
